A study of Mus musculus with 4 samples.

Results

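The lysosome breaks down proteins, glycans, lipids and nucleic acids with soluble hydrolases that work in its acid lumen. The 41 genes described here encode such hydrolases and the small proteins that help them: 12 proteases and peptidases, 16 glycosidases and sulfatases, 6 lipid hydrolases, 4 activator or carrier proteins including progranulin, and 3 enzymes that remove phosphate or cut DNA. They were taken by gene symbol from the deposited table of 17780 genes and each of the 41 symbols matched a single row. In lung, alveolar macrophages and alveolar type 2 cells are known for a large lysosomal system, since both take up or store surfactant.

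Newly made hydrolases receive a mannose 6-phosphate tag and are carried to the lysosome by receptors for it. Many lysosomal genes are under the control of TFEB and related transcription factors, which bind an E-box in their promoters. Amiodarone, an antiarrhythmic drug, is a cationic amphiphilic compound: such drugs gather in lysosomes, and they are known for a block of phospholipid breakdown and for phospholipid storage. The lysosomal phospholipase encoded by Pla2g15 is a known target of that block. Dabigatran is an inhibitor of thrombin, given by mouth as dabigatran etexilate.

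Lung poly(A) RNA came from male C57BL/6J mice aged 6 to 7 weeks at purchase, the same strain in all 4 groups. Amiodarone (300 mg/kg per day) and dabigatran (60 mg/kg per day) were given singly or together, or the carboxymethylcellulose vehicle was given in their place, by mouth 5 times per week for 4 weeks. Each treatment has 1 library, labelled as 28 days of treatment (the methods give day 26), and the sources used here do not say whether a library is from 1 animal. The RNA is from left lung tissue, so a gene's level mixes all cell types, and a change in the number of cells of a type and a change in RNA per cell cannot be told apart. Total estimated reads on genes ranged from 17498486 to 18903401 per library. The lung markers were present in all 4 libraries: the alveolar type 2 gene Sftpc was at 19587 FPKM or more, and the alveolar type 1 gene Ager at 2248 FPKM or more. FPKM is a fragment count scaled for transcript length and for the depth of the library. The values do not add up to a common total. Their sum was largest in the vehicle library, at 592526 FPKM, and smallest in the amiodarone library, at 554613 FPKM. A ratio between libraries therefore depends in part on the scaling, and some counts are also given below for values rescaled to the same total. All 41 genes averaged 1 FPKM or more across the 4 libraries, as did 13183 genes of the table. The fewest reads of any member in any library were the 148 of Gla in the vehicle library, and the most were the 29825 of Psap.

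With 1 library per treatment no test across animals could be made. Each ratio of FPKM is given with a 95% interval, computed from the reads of both libraries by the exact Clopper-Pearson method, which covers counting error only and compares the libraries rather than the treatments. A ratio is said here to be beyond counting error where that interval does not hold 1.

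The promoters are shown first, because an E-box is the known binding site of the TFEB family in lysosomal genes. RefSeq promoter sequences of GRCm38.p6, from 250 bases before to 50 bases after an annotated start, were found for 37 of the 41 genes, with 42 starts among them. The E-box CACGTG was searched on both strands and stood in 11 of these 42 promoters (26.2%), against 7.15% of all 32851 promoters in the table. The longer form GTCACGTG, which holds the E-box, stood in 8 of the 42 (19.05%), against 2.25% of all promoters. The ratios of these 8 genes described below range from Gla and Ctsd, which were higher with amiodarone, to Sgsh, which was lower. The longer form or its reverse complement in each is shown in capitals with 11 bases on either side, written 5′ to 3′ on the strand of the gene.

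Ctsd, chr7:142387907-142387936, minus strand: cgcccgcgtctCACGTGACccgttgagggc
Gla, chrX:134601183-134601212, minus strand: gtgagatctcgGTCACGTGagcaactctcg
Ctsa, chr2:164833748-164833777, plus strand: atgagcaaactGTCACGTGatgcagatgct
Lgmn, chr12:102439125-102439154, minus strand: atggaatgtctGTCACGTGgtccattttat
Naglu, chr11:101070008-101070037, plus strand: ccaaccttcagGTCACGTGgcccgaggtcg
Arsa, chr15:89477424-89477453, minus strand: ttcaactcagtGTCACGTGttgtctgctcc
Glb1, chr9:114401017-114401046, plus strand: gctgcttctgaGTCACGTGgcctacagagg
Sgsh, chr11:119355521-119355550, minus strand: ggcctgccgtgCACGTGACcgtggggagcg

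The match began 98 bases before the start in Ctsd, 196 in Gla, 14 in Ctsa, 51 in Lgmn, 75 in Naglu, 18 in Arsa, 50 in Glb1 and 29 in Sgsh. Ctsd held a second match 245 bases before its start, and Ctsa held a second 5 bases after it. Ctsa and Lgmn each have a further annotated start without a match. In Glb1 the match overlaps an AP-1 motif (TGACTCA).

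The M-box TCATGTG, which is read by MITF and TFE factors of the same family, stood in 7 of the 42 promoters (16.7%), against 3.77% of all promoters. The PU.1 motif GAGGAAGT, the site of a factor known from macrophages, stood in 4 (9.52%), against 3.20%, and the AP-1 motif in 3 (7.14%), against 5.20%. The promoters of Ctss and Acp5, the members with the highest ratios of amiodarone to vehicle, held no E-box in these windows, and both held an M-box. They are shown with the M-box of Grn and the PU.1 motif at the start of Ctss, in the same layout.

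Ctss M-box, chr3:95526793-95526821, plus strand: ttgtggatgctTCATGTGacaagctccga
Acp5 M-box, chr9:22130671-22130699, minus strand: agtccagtgctCACATGAcccaaggggag
Grn M-box, chr11:102430286-102430314, plus strand: gattctctaatCACATGAtccctagaaat
Ctss PU.1 motif, chr3:95526773-95526802, plus strand: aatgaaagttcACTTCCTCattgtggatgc

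The M-box began 18 bases after the start in Ctss, and 90 and 210 bases before a start in Acp5 and Grn. The Acp5 promoter shown belongs to 1 of its 3 annotated starts. A match shows that the letters are there, and binding was not measured.

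In the vehicle library the members ranged from 2.84 FPKM for Gla, the galactosidase that is lost in Fabry disease, to 417 FPKM for Psap, the precursor of the saposins. After Psap came the cathepsins Ctsb (301 FPKM) and Ctsd (262 FPKM), the cholesterol carrier Npc2 (254 FPKM), the aminopeptidase Ctsh (172 FPKM) and progranulin, Grn (109 FPKM). Proteases and carriers were thus the most abundant members, and most glycosidases and sulfatases stood well below them. Psap ranked first in all 4 libraries. Ctsd stood below Ctsb with vehicle and with dabigatran, and above it in both libraries with amiodarone. Ctss ranked 11 of 41 with vehicle and with dabigatran, and 6 in both libraries with amiodarone. Summed over the 41 genes, the level was 2671 FPKM with vehicle and 4015 with amiodarone, and 2792 with dabigatran alone and 4004 with both drugs. As a share of all reads on genes, these sums were 0.654%, 0.937%, 0.680% and 0.938%.

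**Figure D1:**
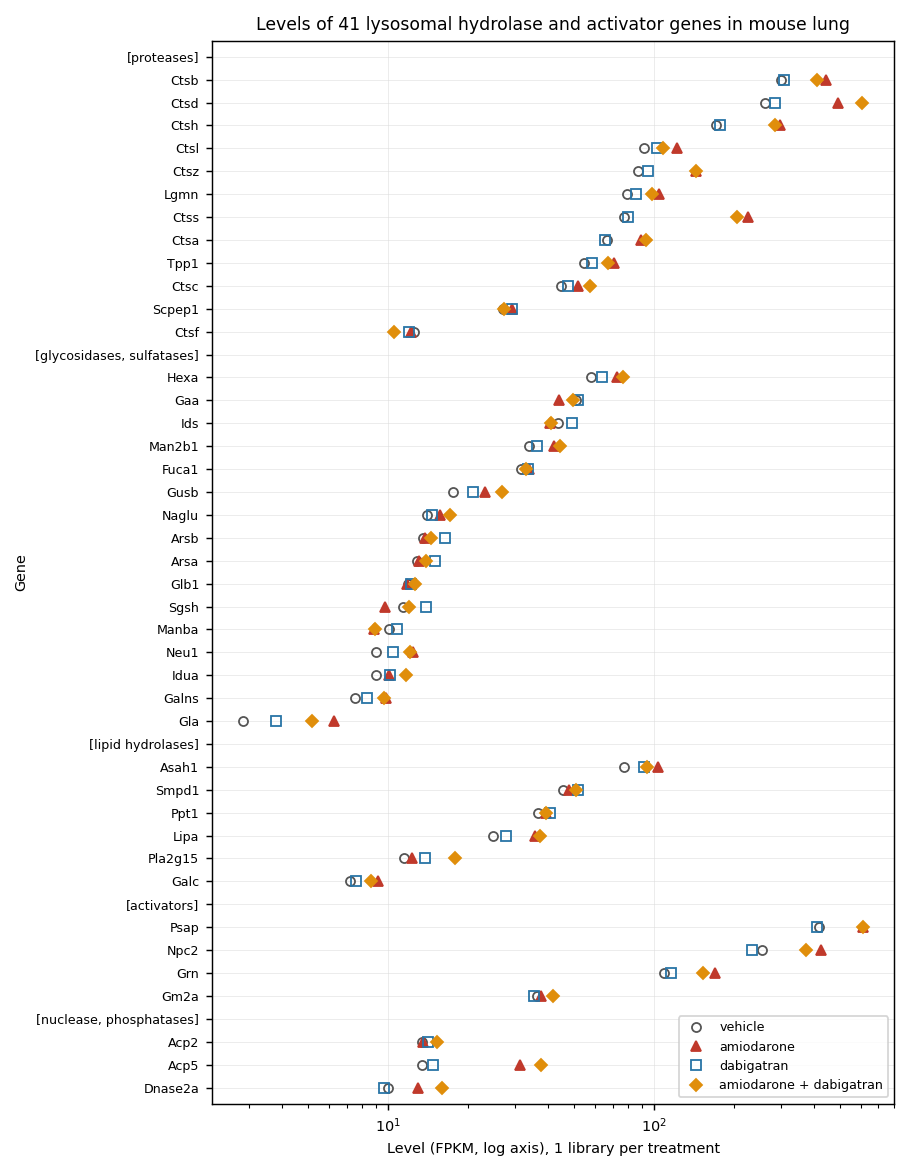
Level of each of the 41 genes in FPKM (log axis), with 1 point per library and 1 library per treatment, grouped by enzyme class and ordered by the vehicle level. The 2 libraries with amiodarone (filled) lie to the right of the 2 without it (open) for 26 of the 41 genes, and the distance is wide for Ctss, Acp5 and Ctsd.

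The comparison of amiodarone with vehicle asks how the drug alone altered these genes. Of the 41 genes, 35 were higher in the amiodarone library and 6 were lower, where 41.1% of the 13183 genes were higher. Beyond counting error, 25 members were higher (19.5% of all genes) and 4 were lower (30.0% of all genes). With the values rescaled to the same total in every library, and the intervals moved with them, 32 members were higher (30.9% of all genes) and 1 was lower (19.1%). At least 25% higher were 22 members, against 10.9% of all genes, and none was lower by that factor, against 17.9%. At least 1.5-fold higher were 8 members, against 5.14% of all genes: Ctss, Acp5, Gla, Ctsd, Ctsh, Npc2, Ctsz and Grn. At least 2-fold higher were Ctss, Acp5 and Gla, 3 members, against 2.60% of all genes. No member was 1.5-fold lower, a size of fall that 6.59% of all genes had. The median difference of the members on the log2(FPKM + 1) scale was 0.33, and that of all genes was -0.04. Just under 1.5-fold lay Ctsb at 1.48 and Psap at 1.47. The 14 macrophage markers described last summed to 302 FPKM with vehicle and 1178 FPKM with amiodarone, and the 8 neutrophil markers to 115 and 615 FPKM.

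Amiodarone + dabigatran against dabigatran alone measures the addition of amiodarone in a second pair of libraries, which shares none with the first. Here 30 members were higher (47.3% of all genes) and 11 were lower. Beyond counting error, 27 were higher (19.5% of all genes) and 4 were lower (23.3%). At least 25% higher were 15 members (9.71% of all genes), and at least 1.5-fold higher were 7 (4.14%). At least 2-fold higher were 3, Ctss, Acp5 and Ctsd (1.74%). Again no member was 1.5-fold lower (3.89% of all genes), and none was lower by the factor of the 25% limit (11.7%). The median log2 difference was 0.20, against -0.01 for all genes. Ctsd, Ctsh, Ctss, Ctsz, Npc2 and Acp5 were at least 1.5-fold higher in both pairs, which is 75.0% of the first list and 85.7% of the second, where over all genes these shares were 53.5% and 66.3%. Both libraries with amiodarone stood above both without it for 26 of the 41 genes, against 21.9% of all genes, and below both for 3 genes, Gaa, Ids and Manba, against 31.3%.

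**Figure D2:**
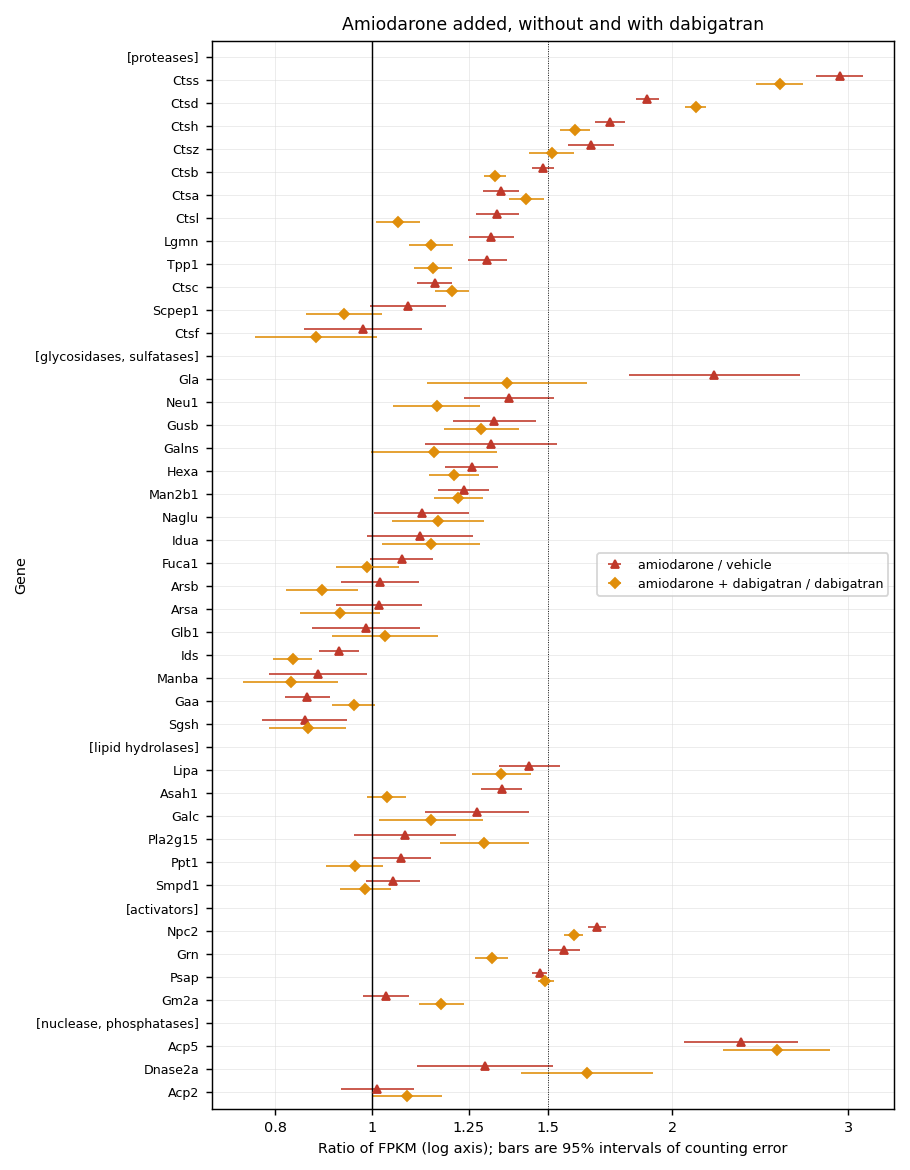
Ratio of FPKM (log axis) for amiodarone over vehicle (triangles) and for amiodarone + dabigatran over dabigatran (diamonds), 1 library per treatment, with bars for the 95% interval of counting error; the dotted line marks 1.5-fold. Ctss and Acp5 stand above 2.3-fold in both pairs, most proteases and activators lie to the right of 1 in both, and Gaa, Ids, Manba and Sgsh lie to the left of 1 in both.

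Among the proteases, 11 of 12 were above vehicle with amiodarone (41.1% of all genes), 10 of them beyond counting error (19.5%). Ctss, the cathepsin S of antigen-presenting cells, which trims the invariant chain of MHC class II, lies on chromosome 3 of GRCm38.p6 from 95526786 to 95556405. It was at 77.1 FPKM with vehicle and 227 with amiodarone, and 80.3 with dabigatran alone and 206 with both drugs. The 2 libraries with amiodarone were thus far above the 2 without it, at ratios of 2.94 (95% interval 2.79 to 3.11) over vehicle and 2.56 (2.43 to 2.71) over dabigatran. Ctsd, the main aspartic protease of the lysosome, lies on chromosome 7 from 142375910 to 142387827 and was at 262, 495, 287 and 606 FPKM in the same order. Its ratios were 1.89 (1.84 to 1.94) and 2.11 (2.06 to 2.16), and it was highest with both drugs. Ctsh, an aminopeptidase that also processes surfactant protein in type 2 cells, was at 172, 297, 178 and 285 FPKM, with ratios of 1.73 (1.67 to 1.79) and 1.597 (1.54 to 1.65). Ctsz, a carboxypeptidase, was at 87.1, 144, 95.1 and 144 FPKM, with ratios of 1.66 (1.57 to 1.75) and 1.51 (1.44 to 1.59).

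The broadly expressed cysteine proteases differed less than these 4. Ctsb, at 301, 447, 308 and 410 FPKM, had ratios of 1.48 (1.45 to 1.52) and 1.33 (1.296 to 1.36). Ctsl, at 91.7, 122, 102 and 109 FPKM, was 1.34-fold over vehicle (1.27 to 1.40) but 1.06-fold in the second pair (1.01 to 1.12). Legumain, encoded by Lgmn, cleaves after asparagine and matures several cathepsins, and it was at 79.6, 105, 85.8 and 98.2 FPKM. Its ratios were 1.32 (1.252 to 1.39) and 1.15 (1.09 to 1.205). Ctsa, the protective protein that stabilizes Glb1 and Neu1, was at 66.8, 89.8, 65.4 and 93.4 FPKM. Its ratios were 1.35 (1.29 to 1.40) and 1.43 (1.37 to 1.49). Tpp1, the tripeptidyl peptidase lost in a childhood ceroid lipofuscinosis, was at 54.5, 71.1, 58.6 and 67.4 FPKM. Ctsc, which activates the serine proteases of neutrophil granules, was at 44.9, 51.9, 47.7 and 57.4 FPKM. It was 1.15-fold (1.11 to 1.202) over vehicle and 1.203-fold (1.16 to 1.251) over dabigatran in the second pair. Scpep1, a serine carboxypeptidase, and Ctsf lay within counting error in both pairs, with Scpep1 between 27.1 and 29.4 FPKM and Ctsf at 12.5, 12.2, 12.02 and 10.6 FPKM.

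The activator and carrier proteins had the highest median ratio of amiodarone to vehicle of the 5 classes, 1.51, with all 4 genes higher. Psap, whose saposins present sphingolipids to their hydrolases, lies on chromosome 10 from 60277628 to 60302600. It was at 417, 614, 412 and 615 FPKM, so that the libraries fell into 2 pairs by amiodarone, at ratios of 1.47 (1.45 to 1.499) and 1.49 (1.47 to 1.52). Npc2, which hands cholesterol to the lysosomal membrane protein Npc1, lies on chromosome 12 from 84754559 to 84773112 and was at 254, 427, 235 and 374 FPKM. Its ratios were 1.68 (1.65 to 1.71) and 1.59 (1.56 to 1.63), and it was the lowest with dabigatran alone. Grn was at 109, 170, 116 and 153 FPKM, with ratios of 1.56 (1.5 to 1.62) and 1.32 (1.27 to 1.37). Gm2a, the activator that lifts ganglioside GM2 to hexosaminidase A, was at 36.4, 37.6, 35.5 and 41.7 FPKM. It lay within counting error over vehicle, at 1.03 (0.980 to 1.09), and was higher in the second pair at 1.17 (1.11 to 1.24).

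The 3 enzymes of phosphate and DNA differed widely among themselves. Acp5, the tartrate-resistant acid phosphatase of osteoclasts and macrophages, lies on chromosome 9 from 22126727 to 22135746. It was at 13.4 FPKM with vehicle and 31.3 with amiodarone, and 14.8 with dabigatran alone and 37.6 with both drugs. Its ratios were 2.34 (2.05 to 2.67) and 2.54 (2.25 to 2.88). Acp2, the acid phosphatase of lysosomes in general, started from the same 13.4 FPKM and was at 13.5, 14.1 and 15.3 FPKM in the other 3 libraries. Dnase2a, which digests the DNA of engulfed cells, was at 10, 12.97, 9.69 and 15.9 FPKM, with ratios of 1.297 (1.11 to 1.52) and 1.64 (1.41 to 1.91).

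The glycosidases and sulfatases moved less, and not in a common direction. With amiodarone 7 of the 16 were higher than with vehicle beyond counting error (19.5% of all genes) and 4 were lower (30.0%). The median ratio of the 16 was 1.09. Gla, on chromosome X from 134588169 to 134601005, was the exception in size and was at 2.84 FPKM with vehicle and 6.25 with amiodarone, and 3.78 with dabigatran alone and 5.16 with both drugs. Its ratio over vehicle was 2.201 (1.81 to 2.69) and in the second pair 1.36 (1.14 to 1.64), with wide intervals because it has the fewest reads of the 41 genes. Neu1, the lysosomal sialidase, was at 9.03, 12.4, 10.4 and 12.1 FPKM, with ratios of 1.37 (1.24 to 1.52) and 1.16 (1.05 to 1.28). Gusb, the glucuronidase, was at 17.5, 23.2, 20.8 and 26.8 FPKM, with ratios of 1.33 (1.21 to 1.46) and 1.29 (1.18 to 1.40). Hexa, the alpha chain of hexosaminidase, was at 58.0, 73.0, 63.6 and 76.7 FPKM, and Man2b1, the alpha-mannosidase, at 34.0, 41.9, 36.3 and 44.2 FPKM. Naglu, which acts on heparan sulfate, was at 13.98, 15.7, 14.6 and 17.1 FPKM, with ratios of 1.12 (1.004 to 1.252) and 1.17 (1.05 to 1.296).

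In the deposited values 4 of the 16 glycan-degrading enzymes were lower with amiodarone beyond counting error, as were 30.0% of all genes. Gaa, the alpha-glucosidase that digests glycogen, was at 50.9 FPKM with vehicle and 43.9 with amiodarone, and 52.0 with dabigatran alone and 49.9 with both drugs, a ratio of 0.861 (0.818 to 0.907) over vehicle. Sgsh, the sulfatase of heparan sulfate, was at 11.4, 9.73, 13.9 and 11.9 FPKM, with ratios of 0.857 (0.775 to 0.944) and 0.861 (0.789 to 0.942). Ids, which removes sulfate from iduronate in dermatan and heparan sulfate, was at 43.8, 40.6, 49.3 and 40.99 FPKM. Manba, the beta-mannosidase, was at 10.04, 8.86, 10.8 and 8.93 FPKM. For Ids, Sgsh and Manba the ratio lay beyond counting error in both pairs, and for Gaa in the first pair alone. The median over all genes was itself a ratio of 0.966 for amiodarone against vehicle, and with the values rescaled to the same total in every library these 4 genes stayed below 1. On that scale Gaa remained beyond counting error, at 0.920 (0.874 to 0.969), and the intervals of Ids (0.946 to 1.04), Sgsh (0.829 to 1.01) and Manba (0.842 to 1.055) held 1. The beta-galactosidase Glb1, the iduronidase Idua, the fucosidase Fuca1 and the sulfatases Arsa and Arsb had levels from 9.02 FPKM for Idua with vehicle to 33.98 FPKM for Fuca1 with amiodarone. Their ratios to vehicle ranged from 0.985 to 1.12 and lay within counting error. Galns, the sulfatase of keratan sulfate, was instead higher over vehicle beyond counting error, at 7.49, 9.85, 8.34 and 9.62 FPKM. Its ratio was 1.315 (1.13 to 1.53) over vehicle, and 1.15 (0.998 to 1.33) in the second pair. The paper lists Galns among genes raised by amiodarone and reversed by dabigatran, by the sign of a Z-score difference. Both drugs over amiodarone was 0.977 (0.850 to 1.12), within counting error.

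Among the 6 lipid hydrolases, 3 were higher with amiodarone beyond counting error (19.5% of all genes) and none was lower (30.0%). Lipa, the acid lipase that frees cholesterol from its esters, was at 24.9 FPKM with vehicle and 35.8 with amiodarone, and 27.7 with dabigatran alone and 37.3 with both drugs. Its ratios were 1.44 (1.34 to 1.54) and 1.35 (1.26 to 1.44). Asah1, the acid ceramidase, was at 77.2, 104, 91.6 and 94.7 FPKM. It was 1.35-fold (1.29 to 1.41) over vehicle and within counting error in the second pair, at 1.03 (0.988 to 1.08). Galc, the galactosylceramidase, was at 7.21, 9.18, 7.55 and 8.65 FPKM. The acid sphingomyelinase Smpd1, at 45.6, 47.9, 51.7 and 50.9 FPKM, lay within counting error in both pairs. So did Ppt1, a thioesterase that removes palmitate from proteins, at 36.8, 39.3, 40.8 and 39.2 FPKM.

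Pla2g15, the phospholipase that cationic amphiphilic drugs inhibit, stood lowest with vehicle and highest with both drugs, with amiodarone below dabigatran, an order that Idua and Acp2 also had. It lies on chromosome 8 from 106150354 to 106164718 and was at 11.4 FPKM with vehicle and 12.3 with amiodarone, and 13.8 with dabigatran alone and 17.9 with both drugs. Amiodarone over vehicle lay within counting error, at 1.08 (0.959 to 1.21). The library with both drugs was 1.45-fold (1.303 to 1.605) over amiodarone and 1.295-fold (1.17 to 1.44) over dabigatran, and dabigatran was 1.21-fold (1.07 to 1.36) over vehicle. Of the 41 genes it had the highest ratio of both drugs to amiodarone.

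Abundant and less abundant members were also counted apart. The average was taken over all 4 libraries, so the values with amiodarone helped to place each gene. With vehicle alone Gaa, at 50.9 FPKM, would stand above the limit of 50 FPKM and Ctsc, at 44.9 FPKM, below it. Of the 15 genes that averaged 50 FPKM or more, 14 were at least 25% above vehicle with amiodarone, and the median ratio was 1.47. Of the 1552 genes of the table at that level, 13.8% were, with a median of 0.988. Of the 26 members below it, 8 were, with a median of 1.075, against 10.5% of 11631 genes and a median of 0.962. In the second pair the counts were 9 of 15, against 10.6% of all genes at that level, and 6 of 26, against 9.59%. Gaa and Smpd1, with ratios over vehicle of 0.861 and 1.05, averaged just below that limit. The exception among the 15 abundant genes in the first pair was Ctsc.

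**Figure D3:**
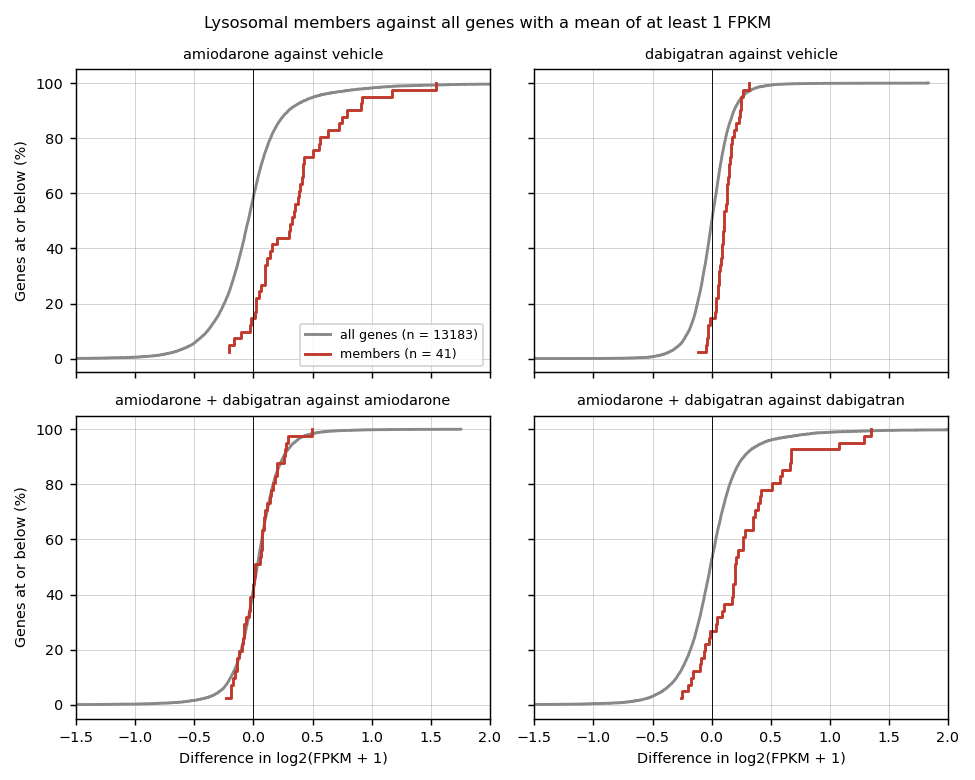
Share of genes (%) at or below each difference in log2(FPKM + 1), for the 41 members and for the 13183 genes that averaged 1 FPKM or more, in the 4 comparisons. The curve of the members lies to the right of that of all genes where amiodarone was added, at medians of 0.33 and 0.20, and close to it for amiodarone + dabigatran against amiodarone, at 0.01. For dabigatran against vehicle the median of the members is also above that of all genes, at 0.11 against 0.00.

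Dabigatran alone against vehicle asks whether the thrombin inhibitor altered these genes by itself. No member was 1.5-fold higher or lower, and 1.21% and 1.30% of all genes were. Gla was the 1 member at least 25% higher, at 1.33 (1.07 to 1.66), against 4.98% of all genes, and none was lower by that factor (5.38%). The differences were small and mostly upward: 35 of the 41 genes were higher (50.1% of all genes), with a median log2 difference of 0.11 against 0.00 for all genes. With the values rescaled to the same total in every library, 40 of the 41 were higher, 32 of them beyond counting error (29.3% of all genes). That rescaling moved the median log2 ratio of all genes from 0.001 to 0.077, so the larger count is not particular to the members. Beyond counting error, 22 were higher (15.2% of all genes) and 1 was lower (13.4%). The upward shift was seen across the glycosidases and sulfatases, all 16 of which were higher, by a median ratio of 1.12. Among them Sgsh had a ratio of 1.22 (1.11 to 1.34), Arsb of 1.205 (1.105 to 1.32), Gusb of 1.19 (1.075 to 1.31) and Arsa of 1.17 (1.06 to 1.29). The 6 lipid hydrolases were all higher too, with Asah1 at 1.19 (1.13 to 1.246). The 1 gene lower beyond counting error was Npc2, at 0.924 (0.902 to 0.946). Without replicates, ratios of this size cannot be set against the spread between animals. The vehicle library was the lowest of the 4 for 30 members, against 21.5% of all genes. Both comparisons with vehicle share this 1 library, so a low value in it raises both ratios of a gene.

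Amiodarone + dabigatran against amiodarone asks whether dabigatran reduced what was seen with amiodarone. Summed over the members, the level was 0.997-fold, and the median log2 difference was 0.01, against 0.03 for all genes. By sign 23 members were higher (57.9% of all genes) and 18 were lower. No member was 1.5-fold higher (2.28% of all genes) or 1.5-fold lower (1.80%), and 1, Pla2g15, was at least 25% higher (8.89%), with none lower by that factor (5.56%). Beyond counting error, 13 were higher (21.1% of all genes) and 11 were lower (14.9%). These ratios differed by class. Of the 12 proteases 7 were lower beyond counting error, among them Ctsl at 0.889 (0.848 to 0.931), Ctss at 0.907 (0.872 to 0.943) and Ctsb at 0.918 (0.897 to 0.938). Ctsd went the other way, at 1.225 (1.201 to 1.249), as did Ctsc at 1.11 (1.07 to 1.15). Npc2, at 0.876 (0.860 to 0.892), and Grn, at 0.898 (0.868 to 0.928), were lower, and Psap was at 1.002 (0.986 to 1.02). On the values rescaled to the same total Psap was at 0.973 (0.958 to 0.989). All 3 phosphate and DNA enzymes were higher, with Dnase2a at 1.23 (1.07 to 1.41), Acp5 at 1.199 (1.09 to 1.32) and Acp2 at 1.13 (1.04 to 1.22). Sgsh and Gaa, which were lower with amiodarone than with vehicle, were at 1.23 (1.12 to 1.35) and 1.14 (1.08 to 1.196). Dnase2a and Acp5 thus stood highest with both drugs, and Sgsh and Gaa stood near their vehicle level. Both libraries with dabigatran were above both without it for 8 members, against 13.2% of all genes: Glb1, Idua, Sgsh, Arsa, Arsb, Smpd1, Pla2g15 and Acp2.

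**Figure D4:**
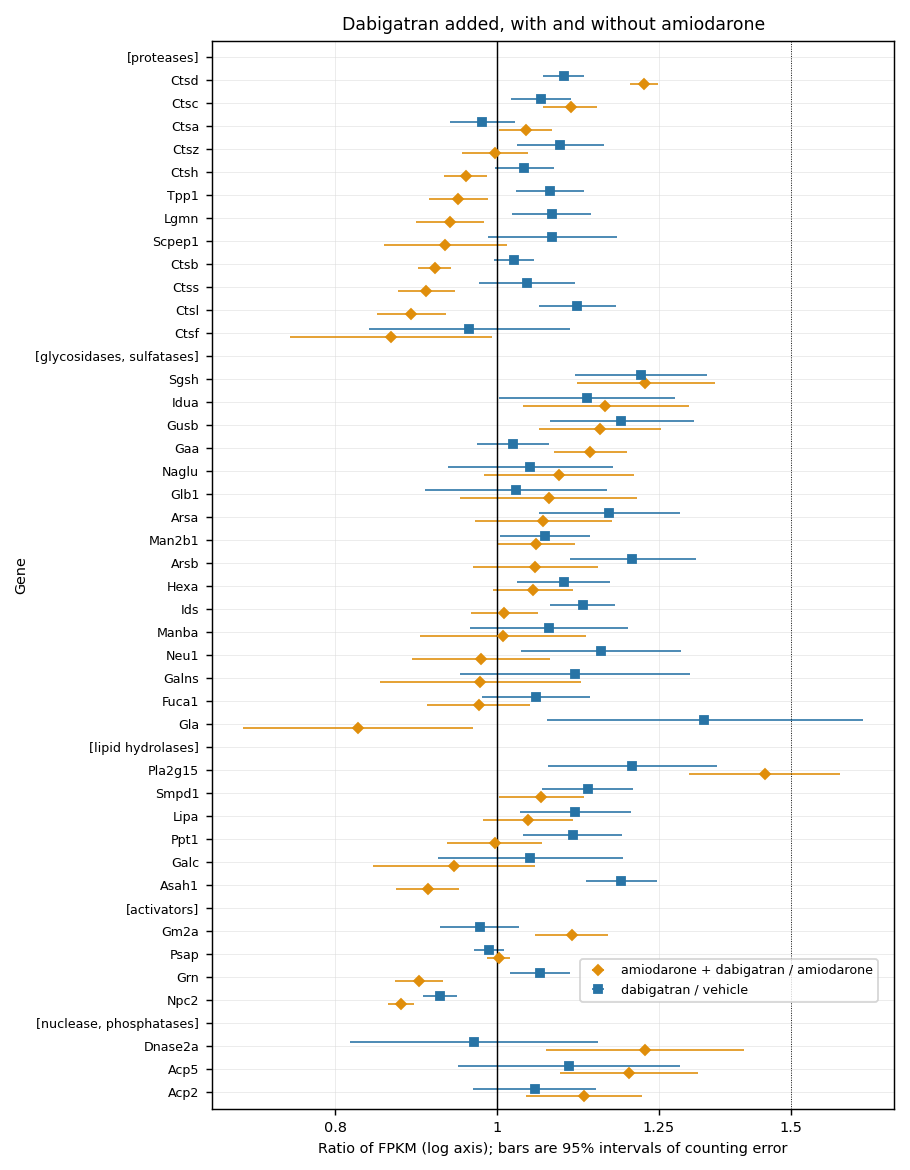
Ratio of FPKM (log axis) for amiodarone + dabigatran over amiodarone (diamonds) and for dabigatran over vehicle (squares), 1 library per treatment, with bars for the 95% interval of counting error. All ratios lie below 1.5, Pla2g15 has the highest ratio over amiodarone at 1.45, and Ctsl, Asah1, Grn and Gla lie on opposite sides of 1 in the 2 pairs.

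Other lysosomal genes were listed beside the members. Of 31 further genes for lumenal proteins 29 were in the table and 28 passed the filter, with a median log2 difference of 0.20 for amiodarone against vehicle and 0.22 for the combination against dabigatran. Beyond counting error 16 were higher (19.5% of all genes) and 2 were lower (30.0%) in the first comparison. The 4 most abundant were Rnaset2a, a ribonuclease, Ifi30, a thiol reductase of antigen processing, Tinagl1, a secreted relative of cathepsin B, and Smpdl3a, a phosphodiesterase. Their ratios of amiodarone to vehicle were 1.16 (1.10 to 1.23), 1.51 (1.41 to 1.61), 1.83 (1.75 to 1.92) and 1.18 (1.12 to 1.24), in that order. Ctsk, the collagen-degrading cathepsin of osteoclasts, was chosen after its values were seen. It was at 9.74 FPKM with vehicle and 73.9 with amiodarone, and 10.6 with dabigatran alone and 51.6 with both drugs, a ratio of 7.59 (6.68 to 8.66) over vehicle that exceeds that of every member. The 14 genes that tag hydrolases or carry them to the lysosome had a median log2 difference of 0.06, with 5 higher and 3 lower beyond counting error, where 19.5% and 30.0% of all genes were. The receptor M6pr was at 78.4, 77.9, 80.6 and 82.5 FPKM, and the sorting receptor Sort1 at 73.9, 68.4, 77.7 and 78.5 FPKM. With 1 library per treatment these lists could not be tested against the members.

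Markers of cell types with many lysosomes moved in the same comparisons. All 14 macrophage markers were above vehicle with amiodarone (41.1% of all genes), 12 of them beyond counting error (19.5%). None of these markers was at 0 reads in any library. Their summed level was 302 FPKM with vehicle and 1178 with amiodarone, and 340 with dabigatran alone and 1384 with both drugs. Much of this sum is Chil3, at 90.3 and 731 FPKM in the first 2 libraries, and without it the sums were 212, 447, 226 and 444 FPKM. The macrophage lysosomal protein gene Cd68 was at 28.6, 77.2, 25.8 and 89.2 FPKM, whereas Csf1r, the receptor on which macrophages depend, was at 38.7, 40.7, 40.9 and 44.9 FPKM. Aif1, the gene of the Iba1 protein, was at 3.56, 3.78, 3.86 and 2.97 FPKM, within counting error in all 4 comparisons. In stained sections the paper counted more Iba1-positive macrophages with amiodarone, and fewer when dabigatran was added. The 8 neutrophil markers summed to 115 FPKM with vehicle and 615 with amiodarone, and 101 with dabigatran alone and 439 with both drugs. Without S100a9 these sums were 70.3, 339, 70.3 and 232 FPKM. The sums were carried by S100a8, S100a9, Retnlg, Csf3r and Cxcr2, and the granule genes did not follow them: Ltf was at 24.4, 28.2, 33.2 and 15.2 FPKM, Ngp at 1.14, 0.92, 0.82 and 1.63 FPKM, and Camp had 2 to 6 reads per library. The 8 alveolar type 2 markers summed to between 25590 and 27646 FPKM, most of it Sftpc, and without Sftpc the sums were 6036, 7434, 5714 and 7261 FPKM. Of these 8 markers 6 were above vehicle with amiodarone beyond counting error (19.5% of all genes), with Sftpd at 1.72 (1.68 to 1.77). The other 2, Sftpc and Abca3, were below it (30.0%). The 5 alveolar type 1 markers summed to between 3214 and 3463 FPKM. The endothelial sum was 956, 977, 1099 and 880 FPKM in the same order. All 5 endothelial markers were lower with both drugs than with dabigatran beyond counting error (23.3% of all genes). The fibroblast sum was 348, 266, 389 and 290 FPKM. The B lymphocyte markers summed to 162 FPKM with vehicle and 55.4 with amiodarone, and 136 with dabigatran alone and 98.2 with both drugs. T lymphocyte markers summed to between 19.6 and 22.6 FPKM. The part of these cell types in the members' values was not tested.

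**Figure D5:**
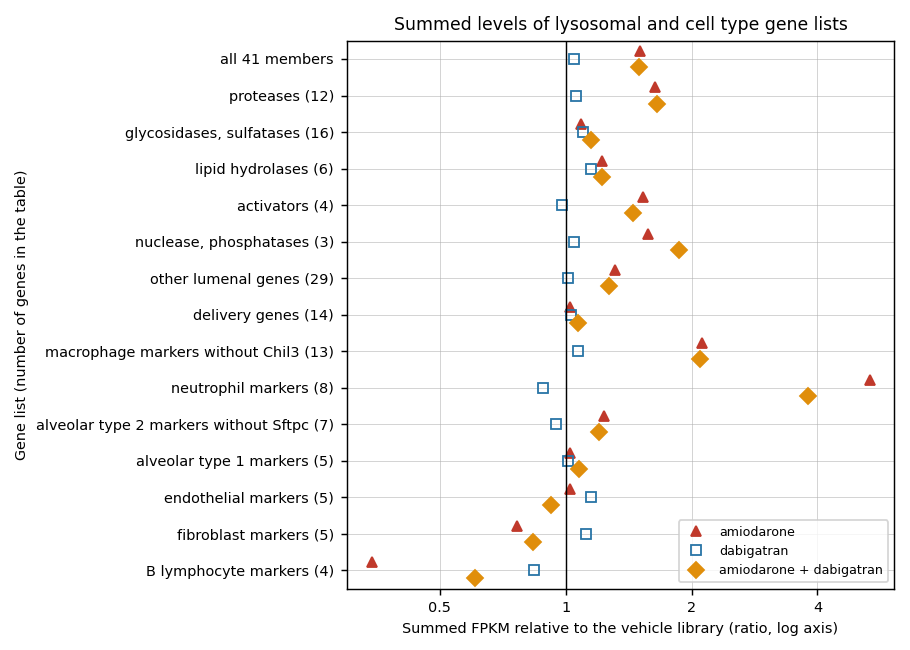
Summed FPKM of each gene list in the amiodarone, dabigatran and amiodarone + dabigatran libraries relative to the vehicle library (ratio, log axis), 1 library per treatment, with the number of genes in parentheses. The members' sum is 1.503-fold with amiodarone, where the lists range from 0.343-fold for B lymphocyte markers to 5.33-fold for neutrophil markers. The macrophage markers are at 2.11-fold without Chil3 and would be at 3.90-fold with it. The alveolar type 2 markers are at 1.23-fold without Sftpc and would be at 1.035-fold with it.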

How the data were processed

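RNA from 4 mouse lung libraries, 1 per treatment, was sequenced on DNBseq. The authors aligned reads with HISAT 2.0.4 (genome GRCm38.p6) and Bowtie2 2.2.5 (gene sequences), and deposited an estimated count of reads per gene from RSEM 1.2.8 with a normalized value. The deposited value is read here as FPKM: its unit is not given in the sources used here, but reads per unit of value differ from the vehicle library by 1 factor per library, 1.07 for amiodarone, equal to the ratio of total reads. Strand was not given in the sources used here. A further 8 columns with means over 2 libraries were not used.

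Groups came from the labels. Members and gene lists were chosen with earlier results of these data known. Genes averaging 1 FPKM or more were kept. Ratios are of FPKM without a pseudocount. Their 95% intervals use counts rounded to whole numbers, and sequenced fragments are not independent molecules. Medians use log2(FPKM + 1). All members were named. The 4 most abundant of the other lumenal genes were named too, and the cell type markers named were not all chosen by abundance. No p-value was computed. A count of 0 allows up to 3 reads, or 1.71e-05% of the vehicle reads.

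Alternatives were a limit of 25% or 2-fold, a pseudocount of 0.1, no filter or 5 FPKM, and 3 other scalings. Sums without Chil3, S100a9 or Sftpc and intervals moved by the rescaling were added after seeing the data. Gene coordinates and promoters are from RefSeq for GRCm38.p6, with all 41 genes found, and motifs were searched as exact letters on both strands. Python 3.11.15, numpy 2.4.6, pandas 2.3.3 and scipy 1.17.1 were used, and the method was tested on simulated data.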

Additional observations from a re-analysis of the deposited data

Results flagged for a closer look

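For 6 members the addition of dabigatran went in opposite directions with and without amiodarone, each beyond counting error: higher against vehicle, and lower against amiodarone. The difference between the 2 pairs was not tested. The share of all genes that did the same is not given here, so the count cannot be called particular to the members. Gla was 1.33-fold (1.07 to 1.66) over vehicle and 0.826-fold (0.704 to 0.967) over amiodarone. Asah1 was at 1.19 (1.13 to 1.246) and 0.909 (0.870 to 0.949), and Ctsl at 1.12 (1.06 to 1.18) and 0.889 (0.848 to 0.931). Lgmn was at 1.08 (1.02 to 1.14) and 0.937 (0.894 to 0.983). Tpp1 was at 1.08 (1.03 to 1.13) and 0.948 (0.910 to 0.988), and Grn at 1.06 (1.02 to 1.11) and 0.898 (0.868 to 0.928). No member went in opposite directions beyond counting error between the 2 comparisons that add amiodarone. The share of all genes that did so is not given here either.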

How the results depend on the processing

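Of 88 values recomputed under the alternatives for the 4 medians and the counts at 1.5-fold, 77 stayed within their limits. The limits were the counting interval of the middle gene for a median, and a factor of 1.5 for a count. Part of the 77 could not have moved. No member was lower at the limit of 25% in any comparison, so the counts of members lower stayed at 0. All 41 genes passed the filter, so leaving it out changed nothing. With a limit of 25%, with or without the demand that the interval lie off 1, 22 members were higher with amiodarone against vehicle, 15 in the combination against dabigatran, 1 with dabigatran against vehicle and 1 in the combination against amiodarone. At 2-fold, 3 members were higher in each comparison that adds amiodarone, against 2.60% and 1.74% of all genes. With the values rescaled to the same total in every library, the median log2 difference of amiodarone against vehicle was 0.42 in place of 0.33. No ratio of at least 1.5-fold changed direction under the 3 other scalings. These shifted the ratios by factors from 0.923 to 1.07, too little to turn a ratio of that size. Near 1 some signs changed: rescaling to the same total left 37 members higher with amiodarone, and 20 in place of 23 in the combination against amiodarone. The median log2 ratio of all genes moved too, from -0.05 to 0.046 in the first of these comparisons and from 0.036 to -0.006 in the second. No paired analysis was possible because each group has 1 library. The depth gives intervals as narrow as 1.445 to 1.499 for Psap and as wide as 1.81 to 2.69 for Gla, and the spread between animals is unknown.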

Other observations

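Cystatins and stefins, the endogenous inhibitors of cysteine cathepsins, form a further list, of which 9 of 14 genes were in the table and 4 passed the filter. Cst3, the secreted inhibitor cystatin C, was at 760 FPKM with vehicle and 657 with amiodarone, and 715 with dabigatran alone and 646 with both drugs. Its ratio of amiodarone to vehicle was 0.865 (0.841 to 0.890), while the other 3 that passed were higher. Cst7, the cystatin F of immune cells, had 25, 50, 39 and 49 reads, a ratio of 1.86 (1.13 to 3.14) over vehicle. Cstb, the intracellular cystatin B, was at 85.6, 123, 61.8 and 105 FPKM, a ratio of 1.44 (1.31 to 1.57) over vehicle, and with dabigatran alone it was at 0.721 (0.648 to 0.803). The stefin gene Stfa2l1 had 17 reads with vehicle and 106 with amiodarone, and 8 with dabigatran alone and 99 with both drugs. It belongs to a family of close copies, so its reads are uncertain.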
